A study of Mus musculus with 6 samples.

Results

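The 10 genes described here are switched on by the transcription factor p53 and were followed through 6 RNA sequencing libraries of mouse heart ventricle at embryonic day 17.5: Cdkn1a, Ptprv, Btg2 and Plk2, which act on the cell cycle, Trp53inp1, Sesn1 and Sesn2, which act on stress and metabolism, and Mdm2, Ccng1 and Phlda3, which feed back on p53 or on survival signalling. These 10 genes were taken by name from the 25006 genes counted in each library, and all 10 had enough counts to be tested. The members were selected on the null-labelled over control differences of these same 6 libraries, so their differences are given as a description, with no p-value, and the number of them called carries no weight of its own. The study set hearts of conditional Prox1 nulls against controls to ask what cardiac lymphatic vessels contribute to heart development. Null-labelled libraries (n = 3) came from embryos with the genotype label VecadcreERT2; Prox1f/f, on an NMRI background, in which the VE-cadherin promoter drives an inducible Cre in endothelial cells and tamoxifen lets it delete floxed Prox1. Control libraries (n = 3) carry the genotype label WT on the same background, although the breeding given for every sample crosses Prox1 f/f females with VecadCreERT2; Prox1f/f males. Tamoxifen was given to the dams on E13.5 and E14.5, 5 mg for each 40 g they weighed, and the protocol states this for both groups. The labels name no embryos. Each group held libraries with Y-linked expression and 1 library without it, so a group did not come from 1 embryo, but whether all 3 libraries of a group came from separate embryos is not given, and a p-value covers only the spread among these 6 libraries, part of which may be technical.

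p53 is kept low in unstressed cells because Mdm2, itself a p53 target, marks it for destruction. DNA damage and other stresses stabilise p53, which then binds paired decamer motifs near its target genes. Cdkn1a is the best known of these targets: its product p21 blocks cyclin-dependent kinases and stops the cell before DNA replication. The other targets here slow growth, restrain mTORC1 or Akt signalling, or bring p53 down again.

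The p53 motif was looked for in the windows that RefSeq places from 250 bases before to 50 bases after a gene start (GRCm38.p6). Of the members, 8 had a window: Cdkn1a, Sesn1, Sesn2, Btg2, Ccng1, Plk2, Mdm2 and Phlda3. Cdkn1a and Sesn1 each have 2 starts, so 10 windows were searched. The motif is the p53 consensus decamer pair with no spacer, read on both strands, since it is its own reverse complement. It was found with at most 1 mismatch in the window of Cdkn1a at its first start and in that of Ccng1, and allowing 2 mismatches added no member. Both stretches are shown because they hold the motif, and the levels of the genes played no part in that choice. Cdkn1a and Ccng1 were called higher in null-labelled ventricles. Sesn2 and Mdm2 were too, and their windows held no match with fewer than 4 mismatches. Capitals mark the 20-base site within the 250 bases before the start, read 5′ to 3′ on the strand of the gene. Cdkn1a is from chr17:29090729-29090978, plus strand, and Ccng1 from chr11:40755287-40755536, minus strand.
Cdkn1a: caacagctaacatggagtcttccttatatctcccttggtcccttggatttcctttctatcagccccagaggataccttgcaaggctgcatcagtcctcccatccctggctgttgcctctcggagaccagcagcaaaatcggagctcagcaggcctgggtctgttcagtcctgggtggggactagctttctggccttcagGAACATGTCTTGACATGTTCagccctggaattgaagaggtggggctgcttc
Ccng1: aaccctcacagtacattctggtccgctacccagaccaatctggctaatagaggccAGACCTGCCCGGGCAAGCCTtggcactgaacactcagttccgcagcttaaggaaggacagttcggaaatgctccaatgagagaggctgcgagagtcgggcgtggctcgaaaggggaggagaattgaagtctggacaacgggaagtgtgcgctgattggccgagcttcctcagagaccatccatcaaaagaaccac

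Set side by side, with the base that departs from the consensus in lower case, the sites read as follows.
Cdkn1a site: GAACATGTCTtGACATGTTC
Ccng1 site: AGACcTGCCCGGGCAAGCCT
The Cdkn1a site (chr17:29090928-29090947) ran from base -51 to base -32 relative to the first start and began 2841 bases before the second start, around which no site was found. The Ccng1 site (chr11:40755462-40755481) ran from base -195 to base -176. A site with at most 1 mismatch was present in 0.0612% of the 14703 windows of genes tested here and in 0.0883% of all 32841 windows, and one with at most 2 mismatches in 0.667% and 0.798%. These matches describe letters in short windows, and regulatory elements further away were not searched.

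Prox1, the targeted gene, had 164, 160 and 168 CPM in null-labelled libraries and 149, 144 and 149 CPM in controls (CPM, counts scaled to library size with TMM factors), a log2 fold change of 0.15 ± 0.03 (adjusted p = 0.0331 by edgeR). The targeted gene was thus not lower in the libraries labelled null. Cardiomyocytes express Prox1 as well as lymphatic endothelium. The groups are called null-labelled and control throughout. Esr1, a mouse gene related to the estrogen receptor part of the inducible Cre fusion, had 298, 244 and 290 counts in null-labelled libraries and 14, 9 and 19 in controls. Which sequence these reads came from was not tested. By the labels, the inducible Cre and floxed Prox1 both go with the group. Their parts in any difference between the groups cannot be told apart. Libraries held 35195544 to 44330594 counts. Null-labelled libraries 1 and 3 carried Y-linked expression at 92.4% and 97.2% of the level of the male controls together with Xist at 3.2% and 9.95% of the level of the libraries lacking Y expression, and whether they are mixtures was not tested. Calls of the members, of Ptpn7 and of many of the gene lists are therefore also given without both. That fit has 1 null-labelled library and called far fewer genes than the fit with all 6 libraries. All 10 cardiomyocyte markers were counted, with a summed level of 75330 to 76940 CPM in null-labelled libraries and 73190 to 79000 CPM in controls, so both groups carried the cardiac muscle genes that the tissue label calls for.

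Of the 10 members, 6 were called higher in null-labelled ventricles and 0 lower (edgeR's quasi-likelihood test, Benjamini-Hochberg adjusted p under 0.05 over all 14815 genes tested); over all genes 5.41% were called, 2.43% higher and 2.98% lower, and nothing is read from the members' count, since this contrast chose them. The called genes were Ptprv, Trp53inp1, Cdkn1a, Sesn2, Ccng1 and Mdm2. The median log2 fold change was 0.20 over the members and -0.004 over all genes tested. In 8 members every null-labelled library lay above every control library, which 12.7% of all genes tested did; groups without overlap in either direction were seen for 26.6% of all genes. Sizes ran from 4.91-fold for Ptprv to 0.995-fold for Plk2. A change in the number of cells of a type and a change in RNA per cell, in either direction, cannot be told apart in whole ventricle.

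**Figure D1:**
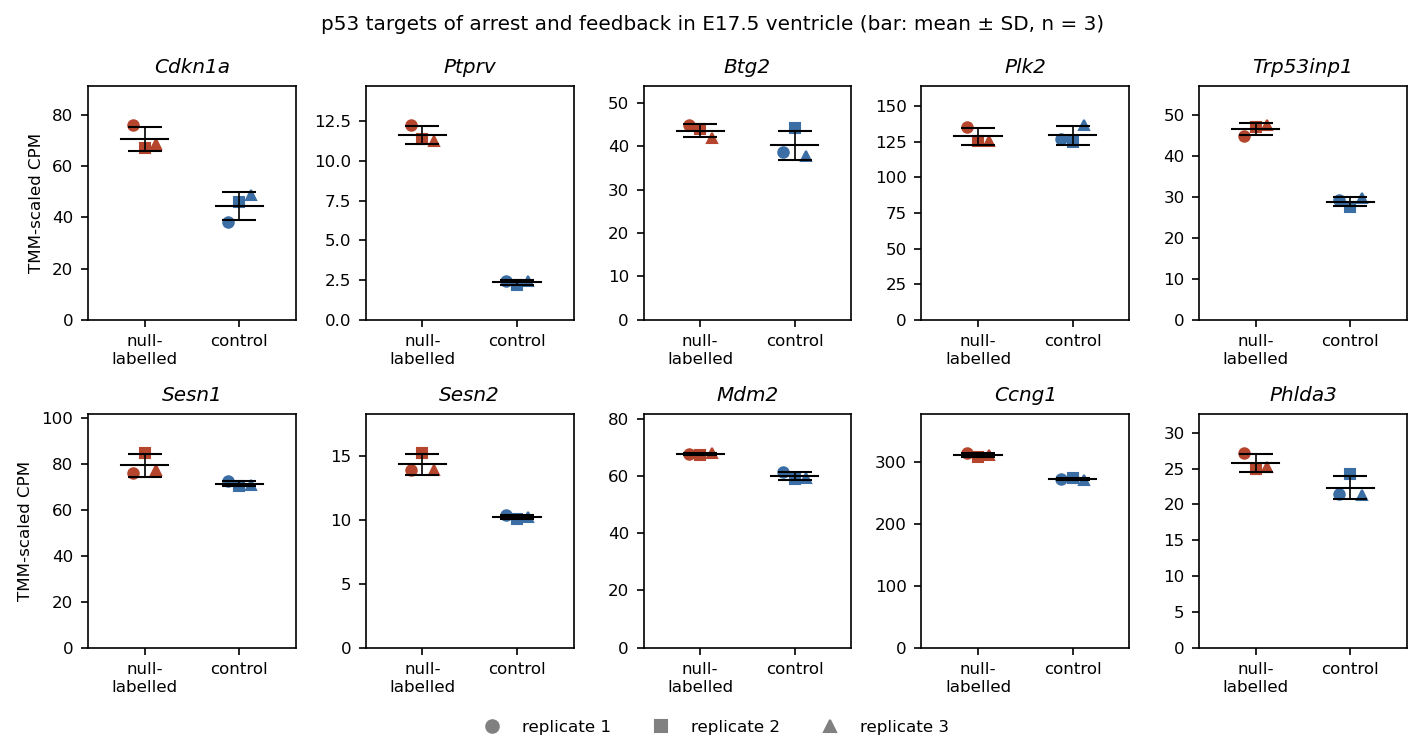
Level of each of the 10 genes in every library, in TMM-scaled CPM on axes that start at 0; points are libraries, with null-labelled left of control, and bars give the mean ± SD of 3 libraries. Ptprv, Cdkn1a, Trp53inp1 and Sesn2 show a wide gap between the groups, Mdm2 and Ccng1 a narrow one, and Btg2 and Plk2 overlap.

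Among the genes of cell cycle arrest, Cdkn1a (chromosome 17, 29090976 to 29100727, GRCm38) had 76.2, 67.1 and 68.9 CPM in null-labelled libraries and 38.2, 46.2 and 48.9 CPM in controls. Every null-labelled library stood above every control, and control 1 was the lowest of all 6. The means were 70.7 ± 4.82 and 44.4 ± 5.54 CPM (SD, n = 3 each), a log2 fold change of 0.67 ± 0.09 (SE), or 1.59-fold. A transcript to be experimentally checked, AC167363.2, shares 273 exon bases with Cdkn1a on the opposite strand, and since the strand setting of the counting is not given in the sources used here, reads from it could not be told apart.

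Ptprv, a receptor-type tyrosine phosphatase that in mouse cells acts in p53-induced arrest and is a pseudogene in humans, had the largest difference of the 10. It had 12.3, 11.4 and 11.3 CPM in null-labelled libraries, from 493, 413 and 465 counts. Controls had 2.45, 2.19 and 2.43 CPM, from 108, 79 and 86 counts. The groups were far apart and each was tight, with means of 11.6 ± 0.551 and 2.36 ± 0.144 CPM and a log2 fold change of 2.30 ± 0.10, or 4.91-fold. The mouse annotation GENCODE M21 lists Ptprv (chromosome 1, 135108497 to 135132594, minus strand) as a processed transcript. An antisense gene, Gm10535, shares 345 of its exon bases, and its reads could likewise not be told apart.

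Btg2, an antiproliferative protein that recruits the deadenylase complex to messenger RNA, had 44.9, 44.0 and 41.9 CPM in null-labelled libraries and 38.6, 44.1 and 37.8 CPM in controls. The groups overlapped through control 2, and the log2 fold change was 0.12 ± 0.06, not called. Plk2, a polo-like kinase that licenses centriole duplication, had 136, 125 and 126 CPM in null-labelled libraries and 127, 125 and 137 CPM in controls. These values interleave, with a log2 fold change of -0.01 ± 0.05, and the sign turned when 1 of several libraries was left out. Btg2 and Plk2 are also immediate early genes, and of 13 other immediate early genes tested 0 were called in either direction by edgeR as used here, by DESeq2 or by limma-voom, while 2 had an unadjusted p under 0.05 in edgeR. With no filter on low counts, or at an adjusted p under 0.1, edgeR called 1 of them lower. Over all genes tested, edgeR as used here called 5.41%. The smallest p among those 13 was that of Ier2, with 15.9 ± 0.438 CPM in null-labelled libraries and 19.1 ± 1.38 CPM in controls and a log2 fold change of -0.26 ± 0.07 (adjusted p = 0.061 by edgeR).

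Among the genes of stress and metabolism, Trp53inp1, which promotes p53 activity and autophagy, had 45.0, 47.2 and 47.6 CPM in null-labelled libraries and 29.2, 27.6 and 29.7 CPM in controls. The lowest null-labelled library was well above the highest control, and the log2 fold change was 0.69 ± 0.05, or 1.61-fold. Its gene lies on chromosome 4 at 11156431 to 11174379.

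The sestrins are stress proteins that hold back mTORC1. Sesn2, which also senses leucine, had 13.8, 15.2 and 13.9 CPM in null-labelled libraries and 10.4, 10.03 and 10.2 CPM in controls. There was no overlap, null-labelled library 2 was the highest, and the log2 fold change was 0.49 ± 0.07, or 1.4-fold. Sesn1 had 75.9, 85.0 and 77.4 CPM in null-labelled libraries and 72.5, 70.4 and 71.1 CPM in controls. Its groups did not overlap either, but the spread in null-labelled libraries was wider (SD 4.86 CPM) than in controls (SD 1.07 CPM), and its log2 fold change of 0.15 ± 0.05 was not called; of the members not called it lay closest to the threshold. Sesn2 can also be switched on by ATF4 in amino acid shortage. Of 16 tested genes of that response, 1 was called higher, Aldh1l2, a mitochondrial folate enzyme, with 65.9 ± 3.24 CPM in null-labelled libraries and 50.1 ± 3.09 CPM in controls (log2 fold change 0.39 ± 0.06, adjusted p = 0.00648 by edgeR; 0.122 without null-labelled libraries 1 and 3). Over all genes tested 2.43% were called higher. The median log2 fold change of the 16 genes was -0.016, and that of Atf4 itself was -0.04 (adjusted p = 0.754 by edgeR). ATF4 protein was not measured, and a part of ATF4 in the Sesn2 level was not tested.

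Among the feedback genes, Mdm2, the ubiquitin ligase of p53, had 67.9, 67.5 and 68.2 CPM in null-labelled libraries and 61.5, 59.1 and 59.4 CPM in controls. The 3 null-labelled values lay within 1 CPM of each other and above all controls, and the log2 fold change was 0.18 ± 0.04, and of the called members Mdm2 lay closest to the threshold. Ccng1, whose product cyclin G1 recruits a phosphatase to Mdm2, had 315, 309 and 311 CPM in null-labelled libraries and 273, 274 and 270 CPM in controls. Both groups were tight and apart, with a log2 fold change of 0.19 ± 0.04, or 1.14-fold. Phlda3, which competes with Akt for membrane lipids, had 27.2, 24.98 and 25.2 CPM in null-labelled libraries and 21.4, 24.2 and 21.3 CPM in controls. The groups did not overlap, but control 2 came close to the null-labelled libraries, and the log2 fold change of 0.21 ± 0.07 was not called. Mdm2, Ccng1 and Phlda3 thus had fold changes of similar size, while the SE was larger for Phlda3 than for the other two.

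**Figure D2:**
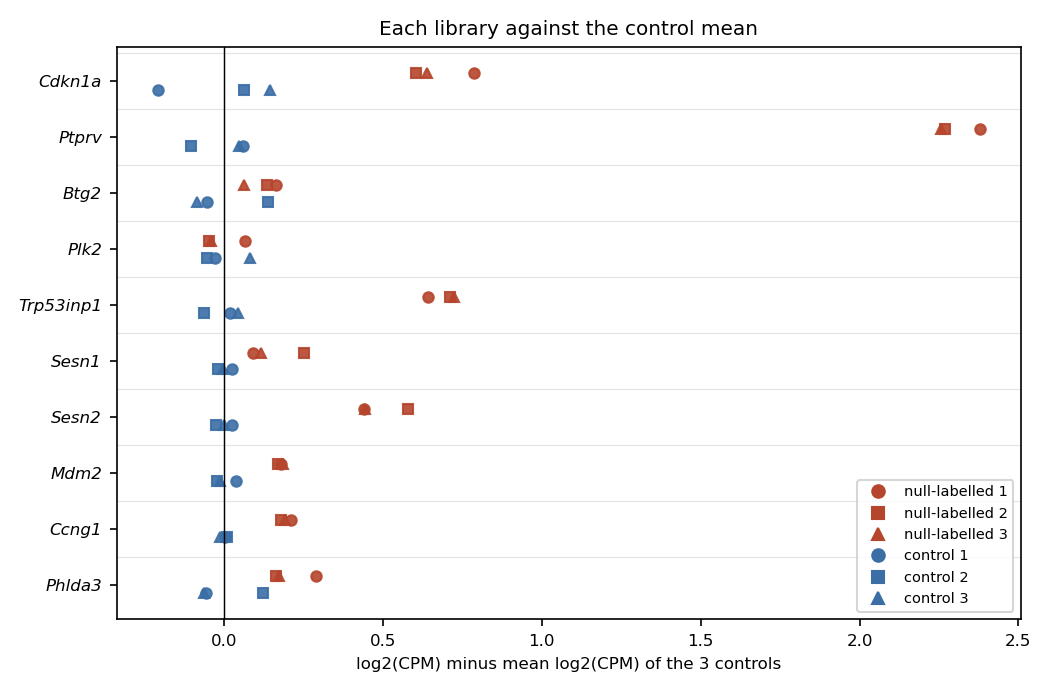
Each library's log2(CPM) minus the mean log2(CPM) of the 3 controls for the 10 genes, with null-labelled libraries in red above controls in blue and a symbol for each replicate number. Ptprv lies at 2.26 to 2.38 in null-labelled libraries, Trp53inp1 at 0.64 to 0.72 and Mdm2 at 0.17 to 0.18, while Plk2 scatters on both sides of 0.

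The differences are given library by library as a description only, since these same libraries chose the members. The median deviation from the control mean over the 10 genes was 0.25, 0.22 and 0.19 on the log2 scale in null-labelled libraries 1, 2 and 3. Null-labelled library 1 was the highest of its group for 6 of the 10 genes, and libraries 2 and 3 for 2 each. Sesn1, Sesn2 and Trp53inp1 did not follow that order: library 2 was highest for both sestrins and library 1 lowest for all 3 genes. In the libraries with Y-linked expression, 2 against 2, the log2 ratio of null-labelled over control means was 2.34 for Ptprv, 0.78 for Cdkn1a, 0.70 for Trp53inp1, 0.44 for Sesn2, 0.19 for Ccng1 and 0.17 for Mdm2. In the remaining pair, null-labelled 2 against control 3, the same genes had 2.22, 0.46, 0.67, 0.58, 0.19 and 0.18. Plk2 had 0.06 in the Y-bearing libraries and -0.13 in the pair. The pair has no replicate, so these values were not tested.

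The 14 other settings tried re-used the libraries whose differences chose the members, so a call that held lends those differences no support. Ptprv and Trp53inp1 were called in all 14. Without null-labelled libraries 1 and 3 together these 2 genes were the only members called, where the log2 fold changes of Cdkn1a and Sesn2 were 0.60 and 0.58. Ccng1 lost its call without any 1 null-labelled library, with log2 fold changes from 0.19 to 0.20 in the fits without 1 library. Mdm2 lost its call without any 1 null-labelled library, without control 2 and with replicate number as a block, and its log2 fold change was 0.16 to 0.20 in the fits without 1 library. Sesn1, Btg2, Phlda3 and Plk2 were called in none of the 14.

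**Figure D3:**
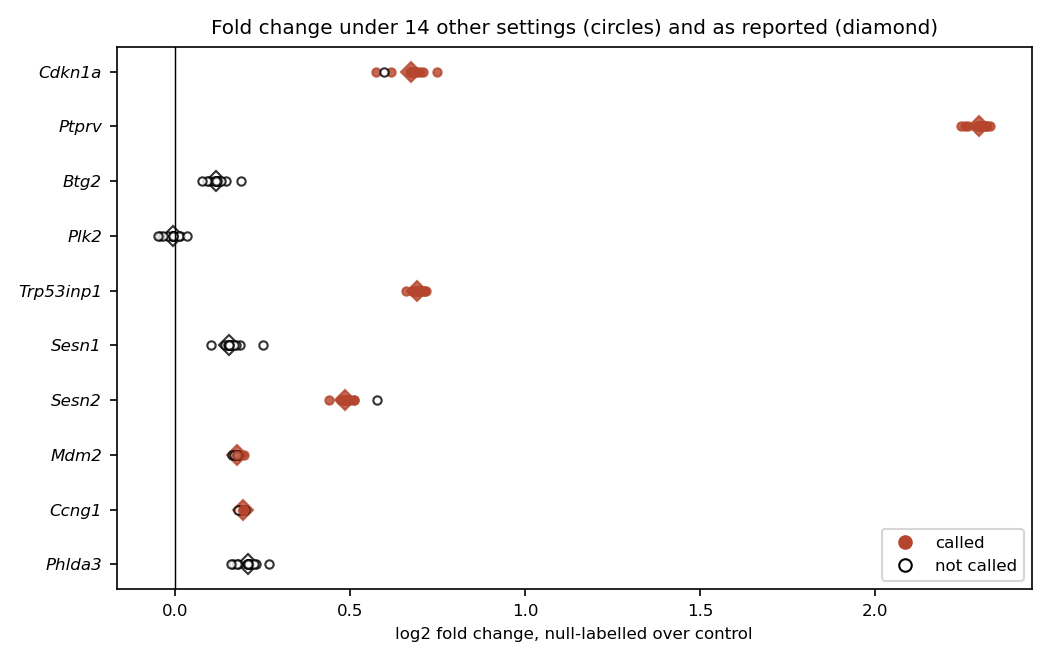
Log2 fold change of null-labelled over control for each gene as reported (diamond) and under 14 other settings (circles), filled where the gene was called. Ptprv spans 2.25 to 2.33 and is filled throughout, while Ccng1 and Mdm2 hold their size near 0.2 with some settings open.

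Levels of different genes are compared per kilobase of merged exons. In null-labelled libraries Ccng1 was the highest at 88.8 CPM per kb, followed by Plk2 at 28.7, Sesn1 at 19.9, Cdkn1a at 19.9, Phlda3 at 16.5, Btg2 at 15.9, Mdm2 at 13.3, Trp53inp1 at 7.20, Sesn2 at 4.12 and Ptprv at 1.66 CPM per kb. In controls the order was Ccng1 at 77.6, Plk2 at 28.8, Sesn1 at 17.9, Btg2 at 14.6, Phlda3 at 14.3, Cdkn1a at 12.5, Mdm2 at 11.8, Trp53inp1 at 4.46, Sesn2 at 2.94 and Ptprv at 0.338 CPM per kb. Cdkn1a thus stood beside Sesn1 in null-labelled libraries and beside Mdm2 in controls. Neighbours whose ranges over libraries overlapped were Sesn1 with Cdkn1a and Phlda3 with Btg2 in null-labelled libraries, and Btg2 with Phlda3, Phlda3 with Cdkn1a and Cdkn1a with Mdm2 in controls. With the longest transcript as the length, Cdkn1a stood at 34.0 CPM per kb in null-labelled libraries and 21.4 in controls, and Mdm2 at 21.6 and 19.1, so the middle of the order depends on which exons are counted.

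The genes whose 6 values ran most like those of Cdkn1a, by root mean square difference of log2 CPM around each gene's own mean over 6 libraries, were Pde7b (0.090), Myrip (0.092), Epha4 (0.092), Zfp984 (0.093) and Ass1 (0.094), out of 12698 genes compared. Among the members Trp53inp1 was nearest, at 0.140, followed by Sesn2 at 0.178. Pde7b, a phosphodiesterase, had 17.6, 16.5 and 16.7 CPM in null-labelled libraries and 10.4, 11.8 and 13.4 CPM in controls. Epha4, an ephrin receptor, had 34.2, 36.7 and 36.9 CPM in null-labelled libraries and 19.4, 23.0 and 25.4 CPM in controls. Both share with Cdkn1a a control 1 below the other controls, which their choice by likeness to Cdkn1a made likely.

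The transcript of p53 itself did not pass the test. Trp53 had 56.0, 56.0 and 54.3 CPM in null-labelled libraries and 62.8, 61.4 and 55.0 CPM in controls, with a log2 fold change of -0.11 ± 0.05 (adjusted p = 0.293 by edgeR). p53 is controlled mainly at the protein, which was not measured. Of 21 tested regulators of p53, 1 was called higher and 0 lower, and the median log2 fold change was 0.02. That is 4.76% called, near the 5.41% of all genes tested. The called gene was Daxx, which binds Mdm2, with 32.0 ± 2.12 CPM in null-labelled libraries and 26.7 ± 0.748 CPM in controls (log2 fold change 0.26 ± 0.06, adjusted p = 0.0346 by edgeR). Its call ended in each fit that lacked 1 library (adjusted p 0.0539 to 0.105 by edgeR) and without null-labelled libraries 1 and 3 (adjusted p = 0.35 by edgeR). For Mdm4, the partner of Mdm2, it was -0.07 (adjusted p = 0.346 by edgeR).

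Of 22 other p53 targets, 2 were called higher and 0 lower, where 2.43% of all genes were called higher. A log2 fold change above 0 was seen in 20 of the 22, and in 7226 of all 14815 genes tested. The median of the 22 was 0.12. The list was drawn up with some of its calls already known. Zmat3, an RNA-binding protein of p53-driven growth suppression, had 47.9, 48.1 and 46.1 CPM in null-labelled libraries and 32.8, 36.3 and 34.8 CPM in controls. The groups did not overlap, and the log2 fold change was 0.45 ± 0.05 (adjusted p = 0.00196 by edgeR). Dcxr, a carbonyl reductase, had 4.67, 4.54 and 4.31 CPM in null-labelled libraries and 2.36, 2.47 and 3.00 CPM in controls, with a log2 fold change of 0.79 ± 0.14 (adjusted p = 0.0144 by edgeR). The Dcxr call ended without null-labelled library 2 (adjusted p = 0.058 by edgeR) or control 2 (adjusted p = 0.052 by edgeR), while Zmat3 held its call in every fit that lacked 1 library. Without control 3 the count in this list was 4, and without null-labelled libraries 1 and 3 together it was 0.

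Of 11 p53 targets of cell death, 3 were called higher and 0 lower, where 2.43% of all genes were called higher and 2.98% lower. The median log2 fold change of the 11 was 0.27. Eda2r, a death receptor of the tumour necrosis factor family, had 16.0, 13.9 and 14.4 CPM in null-labelled libraries and 5.43, 6.06 and 5.26 CPM in controls (log2 fold change 1.40 ± 0.09, adjusted p = 0.000103 by edgeR). Pmaip1, which encodes the BH3-only protein Noxa, had 2.1 ± 0.327 CPM in null-labelled libraries and 0.957 ± 0.275 CPM in controls (log2 fold change 1.14 ± 0.24, adjusted p = 0.0272 by edgeR). Bax, the pore-forming effector, had 44.6 ± 1.48 CPM in null-labelled libraries and 36.5 ± 2.14 CPM in controls (log2 fold change 0.29 ± 0.05, adjusted p = 0.0178 by edgeR). Without null-labelled library 1, 2 or 3 the number called in this list was 1, Eda2r; without control 1 or control 2, and with replicate number as a block, it was 2, Pmaip1 being lost. Without null-labelled libraries 1 and 3 together Eda2r held its call (adjusted p = 0.0212 by edgeR), and Bax and Pmaip1 did not (adjusted p = 0.331 and 0.274 by edgeR).

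**Figure D4:**
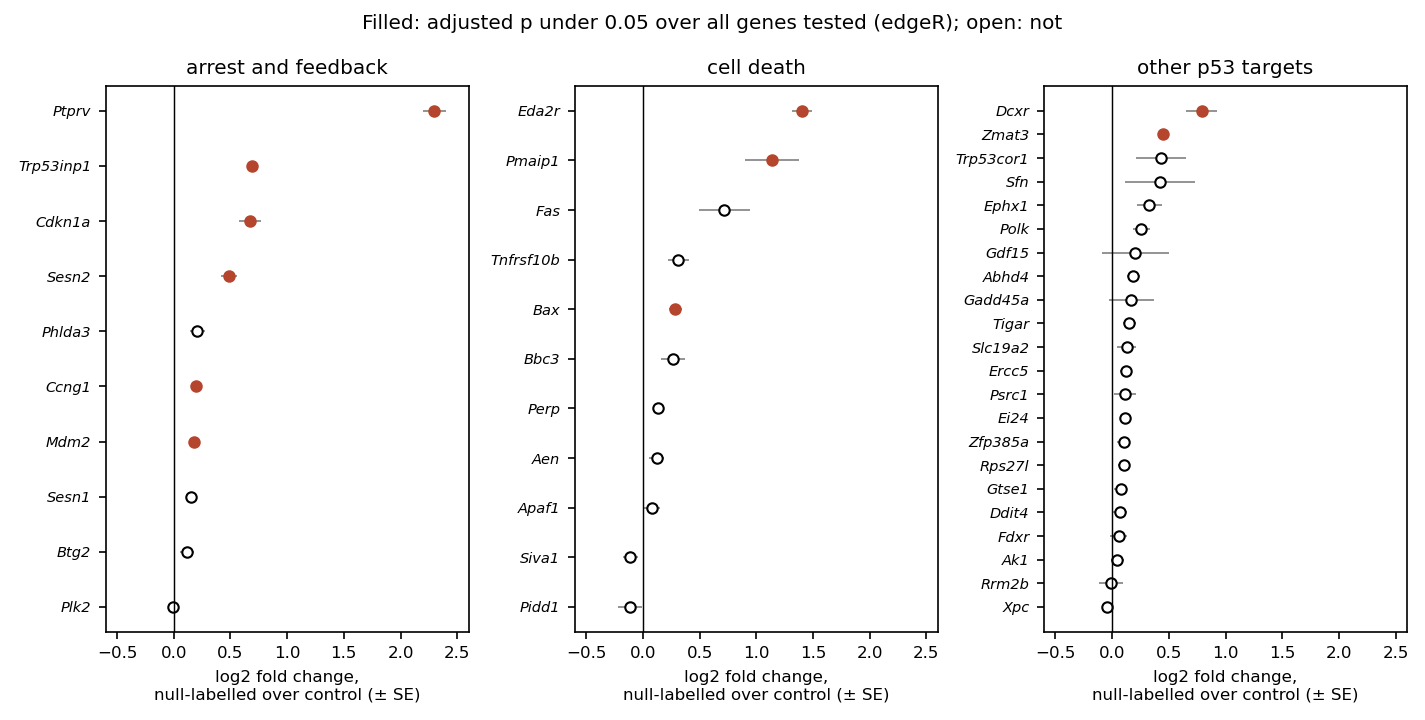
Log2 fold change of null-labelled over control with its SE for the 10 targets of arrest and feedback, 11 targets of cell death and 22 other p53 targets, filled where adjusted p was under 0.05 by edgeR over all genes tested. Large differences are few in each list, led by Ptprv (2.30), Eda2r (1.40) and Dcxr (0.79), and most other targets lie a little above 0.

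Close relatives of the members were read as a comparison within families. Of 17 paralogues tested, 0 were called higher and 2 lower, where 2.98% of all genes were called lower, and their median log2 fold change was 0.01. The other CIP/KIP inhibitors Cdkn1b and Cdkn1c had log2 fold changes of 0.05 and 0.01 (adjusted p = 0.596 and 0.969 by edgeR), and Trp53inp2 had 0.01 (adjusted p = 0.918 by edgeR). Sesn3 had 0.12 (adjusted p = 0.342 by edgeR), Ccng2 0.13 (adjusted p = 0.275 by edgeR) and Btg1 -0.01 (adjusted p = 0.944 by edgeR). Phlda1, a relative of Phlda3, fell to 14.3 to 17.2 CPM in null-labelled libraries, against 19.8 to 20.2 CPM in controls (log2 fold change -0.37 ± 0.08, adjusted p = 0.0257 by edgeR), a call lost without null-labelled library 2 or 3, without control 1 or 2, and without null-labelled libraries 1 and 3 together (adjusted p = 0.163 by edgeR). Ptprb, a phosphatase of endothelial cells, fell to 106 ± 9.24 CPM in null-labelled libraries, against 146 ± 8.55 CPM in controls (log2 fold change -0.46 ± 0.07, adjusted p = 0.0123 by edgeR), a call lost without null-labelled library 3 (adjusted p = 0.0546 by edgeR) and held without libraries 1 and 3 together (adjusted p = 0.0404 by edgeR). Of 10 endothelial markers 6 were called lower too, and their summed level was 1547 to 1686 CPM in null-labelled libraries and 1862 to 2084 CPM in controls. The number of endothelial markers called was 2 without null-labelled library 2 or 3, 4 without control 1 and 1 without null-labelled libraries 1 and 3. The difference between a member and its relative was not tested.

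Partners and downstream genes of p21 and the sestrins were read beside the 2.43% of all genes called higher and the 2.98% called lower. The next list held 19 tested partners of p21 or of the p130 complex: cyclins, their kinases, Pcna, the pocket proteins, and Lin and E2f genes. Of these, 1 was called higher, Rbl2, the pocket protein p130 of quiescent cells. Rbl2 had 60.2 ± 0.244 CPM in null-labelled libraries and 50.7 ± 0.495 CPM in controls (log2 fold change 0.25 ± 0.04, adjusted p = 0.00943 by edgeR). It held its call in every fit that lacked 1 library and lost it without null-labelled libraries 1 and 3 (adjusted p = 0.263 by edgeR). Of 22 cell cycle genes that the p130 complex can repress, 18 had a log2 fold change below 0, with a median of -0.09. Over all genes tested, 7589 of 14815 lay below 0. A part of p21 or p130 in the levels of these 22 genes was not tested. Of the 22 genes, 3 were called lower and 0 higher, which is 13.6% called. These were Cdc6, a replication licensing factor (13.6 ± 0.88 CPM in null-labelled libraries and 18.4 ± 1.15 CPM in controls, log2 fold change -0.44 ± 0.08, adjusted p = 0.0133 by edgeR), Mcm6, a helicase subunit (log2 fold change -0.19 ± 0.04, adjusted p = 0.0441 by edgeR), and Mybl2, a cell cycle transcription factor (log2 fold change -0.39 ± 0.10, adjusted p = 0.0461 by edgeR). The number called lower in this list was 8 without control 3, 0 without null-labelled library 2, 1 without any other library and 0 without null-labelled libraries 1 and 3, where Cdc6 had an adjusted p of 0.192 by edgeR. Of 19 tested partners of the sestrins or genes of their pathways, 1 was called higher, Castor2, a gene of the mTORC1 pathway. It had 53.6 ± 2.62 CPM in null-labelled libraries and 43.1 ± 1.19 CPM in controls (log2 fold change 0.32 ± 0.05, adjusted p = 0.00955 by edgeR). Castor2 likewise held its call in every fit that lacked 1 library and lost it without null-labelled libraries 1 and 3 (adjusted p = 0.104 by edgeR).

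Btg2, Ptprv and Phlda3 lie close together on chromosome 1: the start of Ptprv is 1053.5 kb and that of Phlda3 1687 kb from the start of Btg2. Protein-coding neighbours with a start within 1 Mb of any of the 3 were read from the same fit. Of 45 such genes tested, 1 was called higher and 2 lower, which is 6.67% called, against 5.57% of the 14181 protein-coding genes tested outside the members, and the median log2 fold change was -0.01. The genes called lower were Ppfia4 (log2 fold change -0.40 ± 0.07, adjusted p = 0.0147 by edgeR) and Sox13 (-0.35 ± 0.05, adjusted p = 0.0048 by edgeR).

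The neighbour called higher was Ptpn7, a tyrosine phosphatase of blood cells, named here after its value was seen. Its start lies 106 bases from that of Ptprv, and the genes run away from each other on opposite strands. Ptpn7 (chromosome 1, 135132700 to 135145317, plus strand) had 2.31, 1.93 and 1.96 CPM in null-labelled libraries, from 93, 70 and 81 counts, and 0.682, 0.667 and 0.821 CPM in controls, from 30, 24 and 29 counts. The groups did not overlap, with a log2 fold change of 1.51 ± 0.20 (adjusted p = 0.00438 by edgeR), and the call held without any 1 library, with adjusted p from 0.00652 to 0.0218 by edgeR. Without null-labelled libraries 1 and 3 together the log2 fold change was 1.41 (adjusted p = 0.171 by edgeR). The gene bodies are 105 bases apart and share no annotated exon, and how many reads from either reached the other was not tested.

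**Figure D5:**
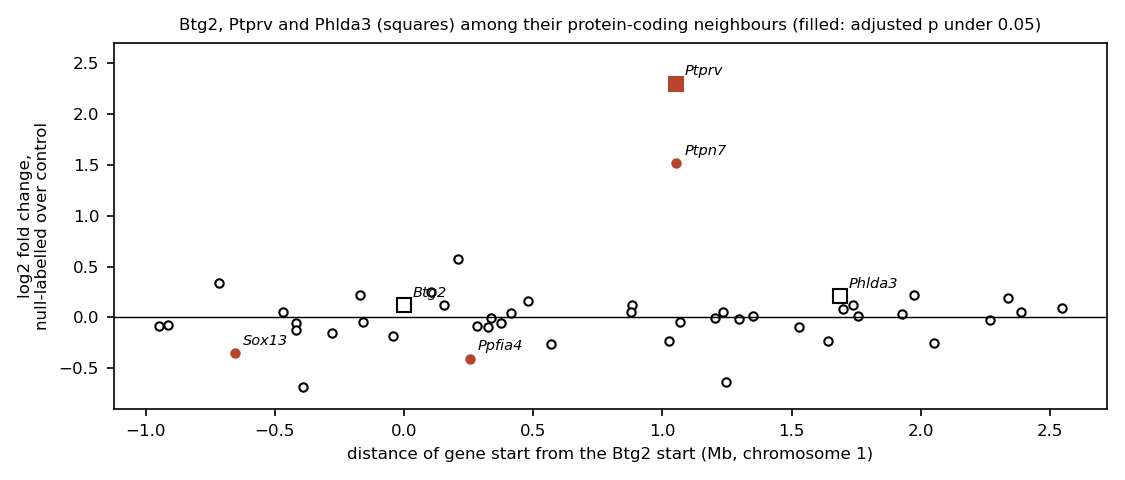
Log2 fold change of null-labelled over control for Btg2, Ptprv and Phlda3 (squares) and for their protein-coding neighbours (circles), by distance of the gene start from that of Btg2 in Mb, filled where adjusted p was under 0.05 by edgeR. Ptprv (2.30) and Ptpn7 (1.51) stand at the same place, and most neighbours lie near 0.

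Neighbours of the other members were read the same way. Within 1 Mb of Cdkn1a, 0 of 31 genes were called higher and 4 lower, within 1 Mb of Trp53inp1 0 of 14 higher and 1 lower, and within 1 Mb of Sesn2 0 of 35 higher and 1 lower. The neighbours called higher were Foxo3, a forkhead transcription factor whose start lies 466.8 kb from that of Sesn1 (log2 fold change 0.23 ± 0.04, adjusted p = 0.0148 by edgeR), and Lrrc10, a cardiac leucine-rich repeat protein near Mdm2 (log2 fold change 0.19 ± 0.04, adjusted p = 0.0216 by edgeR); both were named after their values were seen. Over all members 161 neighbours were tested, of which 3 were called higher and 8 lower (6.83%).

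Genes of some other cell types and responses moved with the groups. Over all genes tested 2.43% were called higher and 2.98% lower. Of 6 mural markers 0 were called higher and 1 lower, and of 6 atrial markers 1 higher and 0 lower. The mural call was lost without any 1 null-labelled library. In fits without 1 library the atrial call held only without control 2. No erythroid marker (6 tested) or liver marker (3 tested) was called, with median log2 fold changes of -0.906 and -0.888. Alb, a liver marker, had 57, 20 and 125 counts in null-labelled libraries and 3, 12 and 322 in controls. Haemoglobin genes held 0.484% of counts in control 3 and at most 0.277% in other libraries. Of 16 interferon-induced genes 15 were called higher, and their summed level was 326 to 452 CPM in null-labelled libraries and 178 to 226 CPM in controls. By smallest p these were led by Ifit3, Mx1, Ifit1 and Usp18, with log2 fold changes of 3.52, 3.32, 4.23 and 3.16 (adjusted p from 0.00126 to 0.00574 by edgeR). The number of interferon-induced genes called was 6 without null-labelled library 3, 7 without control 3, 9 without control 2, 10 without null-labelled library 1, 12 without null-labelled library 2 and 15 without control 1. It was 8 with no filter on low counts, and 2, Ifit1 and Ifit3, without null-labelled libraries 1 and 3. Of 14 macrophage markers 5 were called higher, none was at 0 in all libraries, and their summed level was 113 to 140 CPM in null-labelled libraries and 88.7 to 99.4 CPM in controls. In fits without 1 library the number of macrophage markers called was 0 without null-labelled library 1 or 2 or control 2, 1 without control 1, 4 without null-labelled library 3 and 6 without control 3, and it was 0 without null-labelled libraries 1 and 3. Of 8 fibroblast markers 3 were called higher, with summed levels of 8629 to 9610 CPM in null-labelled libraries and 6947 to 8223 CPM in controls. The number of fibroblast markers called was 0 without null-labelled library 2, 1 without null-labelled library 1 or 3 or control 2, 2 without control 1, 5 without control 3 or with DESeq2, and 0 without null-labelled libraries 1 and 3. The part of these genes' cells and responses in the levels of the p53 targets was not tested.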

How the data were processed

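Counts per gene were available for 6 ventricle libraries. The values are whole-number counts deposited by the authors, 1 file per library, not normalised. The tools listed in the submitters' processing notes are STAR, cutadapt 1.13, DESeq2 and HTSeq 0.6.1p1, with build mm10; no source used here gives their roles, the annotation release or the strand setting. Of 25006 identifiers, 24991 matched GENCODE M21 (GRCm38, the same build), which gave symbols, coordinates and exon lengths.

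Genes were filtered with filterByExpr, scaled by TMM and tested with edgeR 4.0.16 in R 4.3.3 (quasi-likelihood F test, robust, group as the only term, two-sided), with Benjamini-Hochberg adjustment over 14815 genes. The SE of a log2 fold change is its size over the root of F. A level of 3 counts corresponds to 0.0682 to 0.0849 CPM, depending on the library. Alternatives were RLE scaling, other filters, DESeq2 1.42.0, limma-voom (limma 3.58.1), each library left out, null-labelled libraries 1 and 3 left out, a replicate block and a threshold of 0.1.

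The members, the gene lists and the alternatives were chosen with earlier results of these data known. The text names the members, Trp53 and Prox1, up to 4 called genes of each pathway list or else the gene of smallest p, and the 5 genes most like Cdkn1a; paralogues named beside members, Atf4, Mdm4, Esr1 and the neighbours Ptpn7, Ppfia4, Sox13, Foxo3 and Lrrc10 were added afterwards. Promoter sequences are RefSeq's (GRCm38.p6), and a search of 5 kb around each start was planned but 300-base windows were used, as no genome sequence was used here.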

Additional observations from a re-analysis of the deposited data

How the results depend on the processing

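Of the 10 members, 6 were called with RLE scaling, with no filter on low counts, with a mean of at least 1 CPM, with DESeq2, with limma-voom and at an adjusted p under 0.1. Leaving out 1 library gave 4 to 6 members called, 1 to 4 other p53 targets called and 258 to 942 genes called among all tested. Without null-labelled libraries 1 and 3 together, 2 members, 0 other p53 targets and 52 genes in all were called; that fit has 1 null-labelled library, assumed to vary like the controls. At an adjusted p under 0.1, 1430 genes were called. With the replicate number as a block, 5 members, 2 other p53 targets and 570 genes were called, and among the members and the pathway genes named, the block ended the calls of Mdm2, Pmaip1, Mcm6 and Mybl2. Deviations of same-numbered libraries correlated at -0.048, -0.095 and -0.157 across genes, and those of differently numbered libraries at -0.036 to 0.105. Same-numbered libraries were thus not more alike than others. With 3 libraries per group these values cannot exclude a pairing of small effect. Plk2, which was not called, ranged from -0.044 to 0.035 (log2) with 1 library left out, and was above 0 without null-labelled library 2 (0.014), null-labelled library 3 (0.011) or control 3 (0.035); the cause was not tested. The p53 motif was found in 2 members with up to 1 or up to 2 mismatches; windows of 1 kb and 5 kb were not run. Levels per kilobase moved by more than 1 SD in 13 of 20 values when the longest transcript was taken as the length. Genes under 3 counts per library (at most 0.0849 CPM) could not be measured at this depth.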
